A study of Mus musculus with 12 samples.

Results

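The genes of HLA class I antigen presentation were followed in U2OS cells, a human osteosarcoma cell line, after knockdown of SRSF1 or overexpression of LINC01134. The 9 genes were found by their full names on the primary chromosomes, among 58735 genes in the deposited table: the heavy chains HLA-B, HLA-C, HLA-E and HLA-F, the light chain B2M, the peptide transporter genes TAP1 and TAP2, the loading factor TAPBP, and the transactivator NLRC5. All 9 were measured in 12 libraries and all 9 had a mean of at least 0.5 FPKM (fragments per kilobase of gene, with the library scaling set by the authors), so all of them were tested. The libraries formed 4 groups of 3: blank U2OS cells, cells given siSRSF1-2, cells given siSRSF1-3, another siRNA to the same gene, and a LINC01134 overexpression group (OE-LINC01134). LINC01134 is a long non-coding RNA and SRSF1 is a serine and arginine rich splicing factor. The labels give no dose and no time, and the siRNA concentration and harvest time in the paper's methods stand with transfection of HOS, another osteosarcoma line. No library of cells with a control siRNA or an empty vector was analysed here, so the effect of the transfection and that of the siRNA or transcript cannot be told apart. The labels do not say whether the replicates were separate cultures, and the supplementary methods speak of fewer replicates per condition than the labels list. The p-values therefore measure only the spread between these libraries, which may be technical. The organism label reads mouse, although U2OS is a human line and the gene identifiers are human ones.

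A class I molecule is a heavy chain joined to the invariant light chain beta-2-microglobulin, which carries a short peptide to the cell surface. Peptides cut by the proteasome are moved into the endoplasmic reticulum by the TAP transporter, a dimer of TAP1 and TAP2, and tapasin, the product of TAPBP, bridges the transporter to empty class I molecules while they are loaded. NLRC5 acts on the conserved promoters of class I genes and of B2M together with the RFX complex, and the pathway is strongly inducible by interferon. HLA-B and HLA-C present peptides to cytotoxic T cells and engage killer cell receptors, HLA-E presents leader peptides to natural killer cell receptors, and HLA-F is a non-classical molecule that can reach the cell surface without a peptide.

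The depth was 26237763 to 32954539 reads on genes per library. A pair of libraries stood apart: in siSRSF1-3 replicates 1 and 2 the FPKM summed to 611084 and 410612, against 281051 to 324607 in the other 10 libraries, and the library size recovered from their FPKM was 0.712 and 0.888 times their reads on genes, against 0.990 to 1.09 times. In these libraries short genes also stood above long ones. The median log2 difference from the blank mean was 0.353 and 0.252 over genes of up to 2247 bases, and -0.309 and -0.249 over genes of at least 5344 bases. Replicates also differed unequally within groups. All 3 siSRSF1-2 libraries, blank replicates 2 and 3, and OE-LINC01134 replicates 1 and 3 differed by a chi-square of 2.13 to 3.20 per degree of freedom, while every other pair of a group gave 63.2 to 316. The knocked down gene was lower in every library of both siRNA groups. SRSF1 was at 35.9, 19.8 and 20.5 FPKM in blank cells, at 7.09, 7.46 and 7.41 with siSRSF1-2 (log2 fold change -1.72, adjusted p = 0.0050), and at 3.33, 6.81 and 7.90 with siSRSF1-3 (-2.09, adjusted p = 0.0518). LINC01134 was at 0.497 to 0.791 FPKM in blank cells and at 891, 1279 and 878 FPKM in the OE-LINC01134 libraries. The cells carried the mesenchymal and osteoblast markers in part, with 6 of 8 reaching 0.5 FPKM, while COL1A2 and TWIST1 did not. Their summed level was 276 to 417 FPKM in blank cells, 144 to 149.5 with siSRSF1-2, 154 to 265 with siSRSF1-3 and 147 to 358 with OE-LINC01134, and its part in the results was not tested. The largest share was that of VIM, with a blank mean of 207 FPKM. Of the 6 markers tested, 5 were fitted lower and 1 higher in each comparison with blank cells. The higher one was ALPL with siSRSF1-2 (log2 fold change 0.43) and siSRSF1-3 (0.85), and CDH2 with OE-LINC01134 (0.15). RUNX2 was at -0.05 with siSRSF1-3. In limma VIM was at -1.39 with siSRSF1-2 (adjusted p = 0.0015) and ALPL at -1.91 with OE-LINC01134 (adjusted p = 0.0402). Both had an adjusted p under 0.05 and a log2 fold change beyond 1, as did 4.95% and 0.85% of all genes in these comparisons. The VIM value rests on the near-identical siSRSF1-2 libraries.

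All of the genes but B2M and NLRC5 lie on chromosome 6, in the coordinates of the deposited table, whose build is not given in the sources used here. HLA-F (ENSG00000204642) is at chr6:29722775-29738528 and HLA-E (ENSG00000204592) at chr6:30489467-30494205, both on the plus strand. HLA-C (ENSG00000204525) is at chr6:31268749-31272130 and HLA-B (ENSG00000234745) at chr6:31269491-31357188, both on the minus strand. These gene models share 2640 bases, which is most of HLA-C, and class I genes are near-identical over long stretches, so the split of reads between HLA-B and HLA-C is uncertain. TAP2 (ENSG00000204267, chr6:32821833-32838780), TAP1 (ENSG00000168394, chr6:32845209-32853978) and TAPBP (ENSG00000231925, chr6:33299694-33314387) follow on the minus strand. All 8770 bases of the TAP1 model lie inside the model of PSMB9, an immunoproteasome subunit gene on the plus strand, and without strand information reads on any bases that both transcripts use cannot be assigned to either. The overlap of their exons was not measured. The HLA-F model overlaps an antisense RNA that was listed at a mean of 0.375 FPKM. B2M (ENSG00000166710) is at chr15:44711487-44718877 and NLRC5 (ENSG00000140853) at chr16:56989485-57083531, both on the plus strand.

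In blank cells the genes fell into an abundant and a scarce set. HLA-C was the highest at 95.2 ± 11.6 FPKM (SD, n = 3), followed by B2M at 82.6 ± 6.73, HLA-B at 64.5 ± 14.0 and HLA-E at 61.6 ± 11.7. The ranges of HLA-C and B2M overlapped, and so did those of HLA-B and HLA-E. The loading genes were lower, with TAPBP at 15.95 ± 0.381, TAP1 at 11.3 ± 3.06 and TAP2 at 5.33 ± 0.799 FPKM. HLA-F at 3.63 ± 1.48 FPKM overlapped TAP2, and NLRC5 was the lowest at 1.05 ± 0.0920 FPKM. In the OE-LINC01134 and siSRSF1-2 groups B2M came first and HLA-C next, with overlapping ranges, and in both groups HLA-B and HLA-E followed, each apart from its neighbours. In the siSRSF1-3 group HLA-B had the highest mean, but the ranges of HLA-B, HLA-C, B2M and HLA-E overlapped in that order. The scarce genes rested on fewer reads: HLA-F on 156 to 920 reads per library, NLRC5 on 171 to 835 and TAP1 on 97 to 2042, against 10476 to 18557 for B2M.

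**Figure D1:**
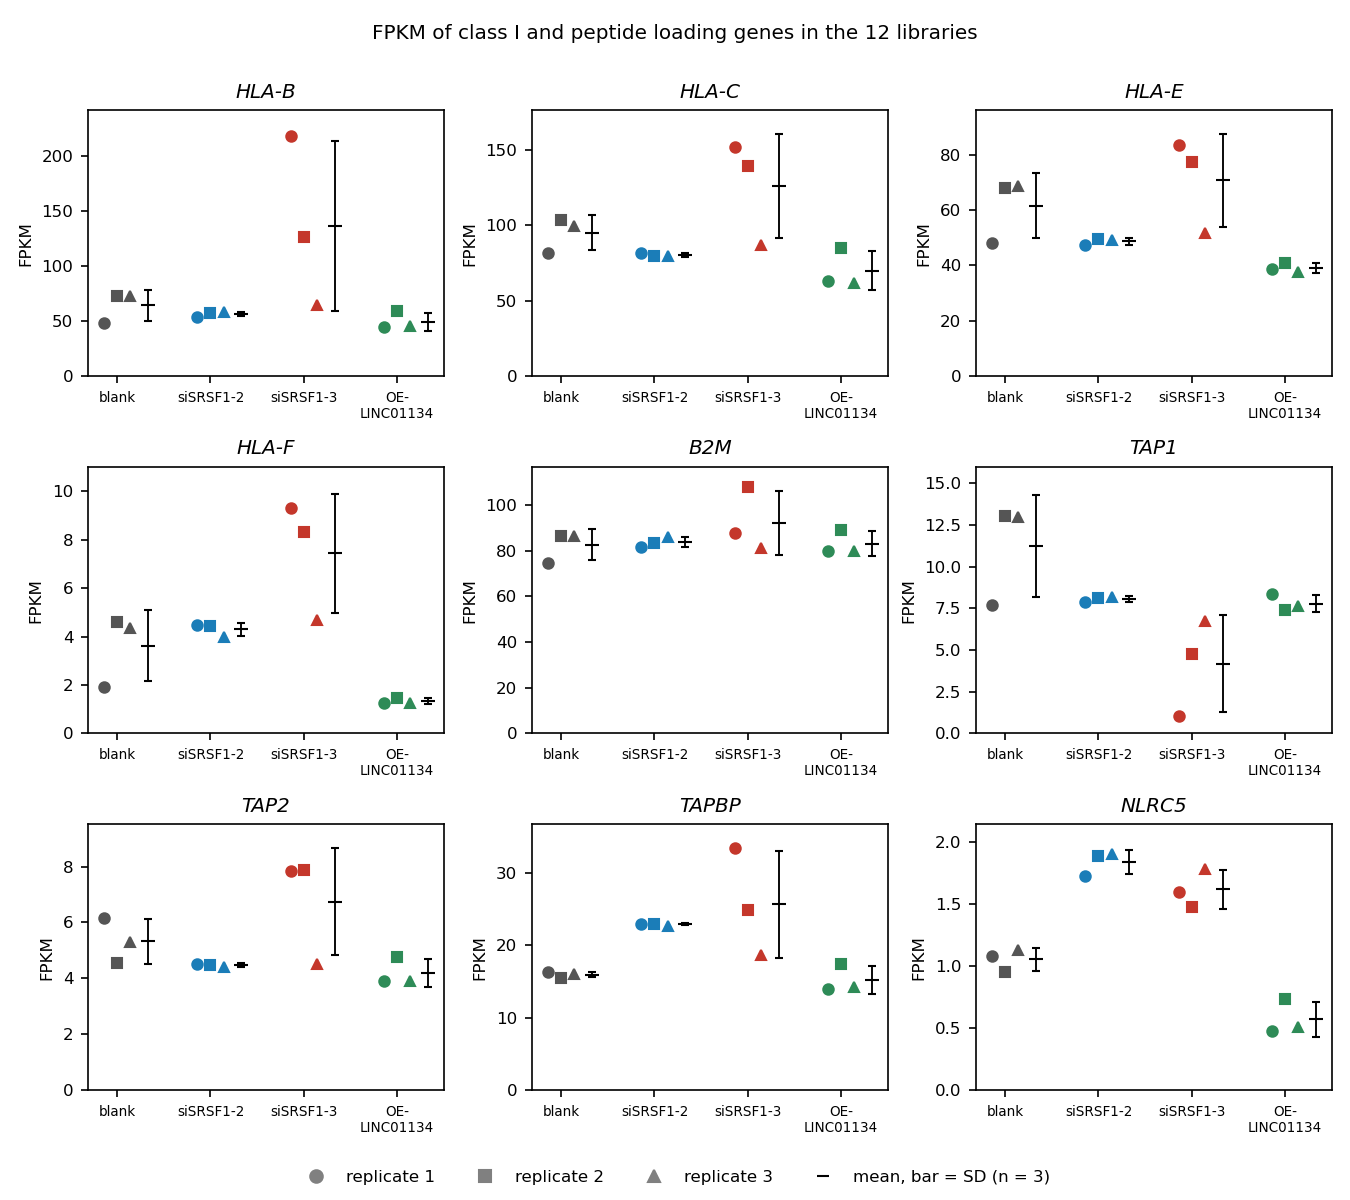
Each panel plots the FPKM (linear axis from 0) of 1 gene in the 12 libraries, with circles, squares and triangles for replicates 1, 2 and 3 and a black mark with a bar for the mean and SD of each group (n = 3). HLA-B reaches 217 FPKM in siSRSF1-3 replicate 1, TAP1 is at 1.03 FPKM in the same library, and HLA-F lies at 1.24 to 1.48 FPKM in the OE-LINC01134 libraries.

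The comparison of siSRSF1-3 with blank cells asked how knockdown of SRSF1 by this siRNA changed the expression of these genes. None of the 9 genes passed the threshold in limma, which asked for both an adjusted p under 0.05 and a log2 fold change beyond 1 in either direction, where 1.26% of all 17538 genes tested did. At an unadjusted p under 0.05, 4 of 9 were called (TAP1, TAPBP, HLA-F and NLRC5), against 28.8% of all genes, and voom on the recovered reads called 0 of 9. The fitted values were higher for 8 genes and lower for TAP1, with a median log2 fold change of 0.37 against -0.01 over all genes tested. The groups did not overlap for 4 of 9 genes, with HLA-F, TAPBP and NLRC5 above blank cells and TAP1 below, against 37.2% of all genes. In bulk samples fewer cells of a type and less RNA per cell cannot be told apart.

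Among the heavy chains, HLA-B and HLA-F showed the larger fitted differences with siSRSF1-3. HLA-B was at 48.3, 72.5 and 72.8 FPKM in blank cells and at 217, 126 and 64.5 FPKM in siSRSF1-3 replicates 1, 2 and 3. Replicates 1 and 2 lay above all blank libraries and replicate 3 lay within their range. The log2 fold change was 0.93 (95% interval -0.13 to 1.99, adjusted p = 0.208). HLA-F was at 1.92, 4.60 and 4.35 FPKM in blank cells and at 9.32, 8.33 and 4.67 FPKM with siSRSF1-3, where replicate 3 was just above the highest blank library. Its log2 fold change was 1.05 (0.09 to 2.02, adjusted p = 0.150). HLA-C was at 82.0, 104 and 99.7 FPKM in blank cells and at 152, 139 and 87.0 FPKM with siSRSF1-3, and HLA-E at 48.0, 68.0 and 68.7 against 83.3, 77.3 and 51.6 FPKM. Both overlapped between the groups through replicate 3, with log2 fold changes of 0.37 (adjusted p = 0.381) and 0.19 (adjusted p = 0.646).

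The light chain overlapped between the groups. B2M was at 74.8, 86.6 and 86.4 FPKM in blank cells and at 87.9, 108 and 81.0 FPKM with siSRSF1-3, with a log2 fold change of 0.15 (-0.34 to 0.64, adjusted p = 0.635). The summed FPKM of the 4 heavy chains divided by that of B2M, a ratio within a library that no single scaling factor changes, was 2.41, 2.87 and 2.84 in blank cells. It was 5.26, 3.25 and 2.56 in siSRSF1-3 replicates 1 to 3, so that replicates 1 and 2 exceeded every blank library and replicate 3 did not. The ratio is not free of the tilt toward short genes in those replicates, since the gene length is 6079 bases for B2M and 2507 to 4342 bases for the heavy chains. With the trend on gene length removed, the log2 fold change was 0.17 for HLA-C, 0.036 for HLA-E and 0.23 for B2M, and that of HLA-B and HLA-F was 0.78 and 1.03.

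The transporter genes were fitted in opposite directions with siSRSF1-3. TAP1 was at 7.72, 13.1 and 13.0 FPKM in blank cells and at 1.03, 4.77 and 6.75 FPKM with siSRSF1-3, where all 3 libraries lay below the lowest blank library. The lowest value rested on 97 reads, against 1027 to 2042 reads in the blank libraries. The log2 fold change was -1.72 (-3.26 to -0.18, adjusted p = 0.147). TAP2, which encodes the other subunit, was at 6.15, 4.55 and 5.29 FPKM in blank cells and at 7.85, 7.87 and 4.52 FPKM with siSRSF1-3, with overlapping groups (log2 fold change 0.30, adjusted p = 0.457). The ratio of TAP1 to TAP2 was 1.26, 2.87 and 2.46 in blank cells and 0.131, 0.607 and 1.49 with siSRSF1-3, where replicate 3 lay within the range of the blank libraries. PSMB9, whose gene model contains TAP1, was at 1.80, 3.69 and 3.74 FPKM in blank cells and at 2.28, 3.37 and 1.37 FPKM with siSRSF1-3 (-0.40, adjusted p = 0.524).

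Tapasin and the transactivator were higher in every siSRSF1-3 library than in any blank library. TAPBP was at 16.3, 15.5 and 16.0 FPKM in blank cells and at 33.4, 24.8 and 18.7 FPKM with siSRSF1-3 (log2 fold change 0.64, 0.08 to 1.20, adjusted p = 0.141). NLRC5 was at 1.08, 0.952 and 1.13 FPKM in blank cells and at 1.60, 1.47 and 1.79 FPKM (log2 fold change 0.57, 0.04 to 1.11, adjusted p = 0.154). For NLRC5 the highest value was that of replicate 3, while for the heavy chains and TAPBP it was that of replicate 1.

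Replicate 3 and the scaling of the libraries bear on these values. Without siSRSF1-3 replicate 3, HLA-B (1.38, adjusted p = 0.0246), HLA-F (1.35, adjusted p = 0.0461) and TAP1 (-2.23, adjusted p = 0.0424) passed the threshold, and the 2 libraries left were those with the raised FPKM sums and the tilt toward short genes, whose part in the result was not tested. Under that omission 4184 of all 17538 genes passed the threshold. Without siSRSF1-3 replicate 1 the log2 fold change was 0.51 for HLA-B (adjusted p = 0.428) and -0.93 for TAP1. When the scaling was by each library's read total, the median over all genes was -0.26 and HLA-E and B2M turned to -0.07 and -0.11, and when all libraries were given an equal FPKM sum the median was -0.43 and HLA-C, HLA-E, B2M and TAP2 turned to -0.07, -0.26, -0.29 and -0.14. Under the equal sum HLA-B, HLA-F, TAPBP and NLRC5 shrank to 0.48, 0.61, 0.20 and 0.16, and TAP1 was at -2.13. With the trend on gene length removed instead, TAPBP and NLRC5 were at 0.67 and 0.82, above their values under the deposited scaling. TAP2 and TAP1 were then at 0.40 and -1.71.

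**Figure D2:**
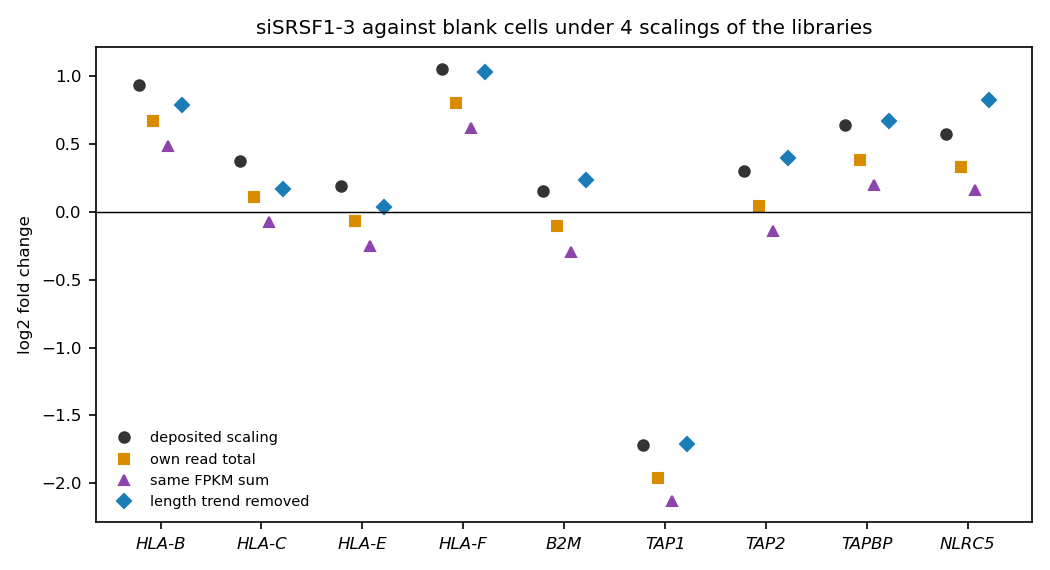
The log2 fold change of each gene in siSRSF1-3 against blank cells (vertical axis) is plotted under the deposited scaling (circles), each library's own read total (squares), the same FPKM sum in every library (triangles) and after removal of a trend on gene length (diamonds). The horizontal line marks 0: TAP1 lies below it in all 4 cases, and HLA-C, HLA-E, B2M and TAP2 cross it in at least 1.

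The comparison of siSRSF1-2 with blank cells tested the other siRNA against the same gene. None of the 9 genes passed the threshold in limma, against 4.95% of all genes tested. TAPBP and NLRC5 had an adjusted p under 0.05 with a log2 fold change under 1, and 26.8% of all genes had such an adjusted p at any fold change. At an unadjusted p under 0.05, 3 of 9 were called (TAPBP, NLRC5 and HLA-C), against 40.3% of all genes, and voom called 0 of 9. The groups did not overlap for 4 of 9 genes, against 49.5% of all genes, with TAPBP and NLRC5 above blank cells and HLA-C and TAP2 below. The median log2 fold change was -0.17 against 0.02 over all genes tested.

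TAPBP was at 22.9, 23.0 and 22.7 FPKM in the siSRSF1-2 libraries, against 15.5 to 16.3 FPKM in blank cells. The log2 fold change was 0.52 (0.39 to 0.65, adjusted p = 0.00259), or 43.4% above the blank mean. NLRC5 was at 1.73, 1.89 and 1.90 FPKM, against 0.952 to 1.13 FPKM in blank cells (log2 fold change 0.75, 0.45 to 1.05, adjusted p = 0.00855), or 74.5% above the blank mean. The 3 siSRSF1-2 libraries were near-identical throughout the transcriptome, and the p-values rest on that small spread. With near-identical libraries averaged to 1 replicate the log2 fold changes were 0.51 for TAPBP and 0.74 for NLRC5, in a design with 1 siSRSF1-2 sample that called 0 of 17538 genes. The adjusted p over the omissions of 1 library reached 0.0257 for TAPBP and, for NLRC5, 0.0514 without siSRSF1-2 replicate 2 and 0.052 without replicate 3. In one limma fit over all 4 groups, where the spread of the other groups also counts, TAPBP had an adjusted p of 0.133.

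The heavy chains, B2M and the transporter genes had no adjusted p under 0.05 with siSRSF1-2. HLA-B was at 54.0, 57.7 and 57.9 FPKM (log2 fold change -0.17, adjusted p = 0.498), HLA-C at 81.6, 79.8 and 79.7 FPKM (-0.24, adjusted p = 0.124), and HLA-E at 47.2, 49.7 and 49.2 FPKM (-0.32, adjusted p = 0.158). HLA-C lay just below the lowest blank library, HLA-B lay within the blank range, and replicate 1 of HLA-E lay just below it. HLA-F was at 4.47, 4.44 and 3.99 FPKM, within the blank range (0.33, adjusted p = 0.487) and turned to -0.06 without blank replicate 1. Without that same library HLA-B (-0.36, adjusted p = 0.000828), HLA-C (-0.34, adjusted p = 0.000419), HLA-E (-0.49, adjusted p = 0.00018) and TAP1 (-0.69, adjusted p = 0.000107) had an adjusted p under 0.05, each with a fold change under the minimum. That fit set near-identical blank replicates 2 and 3 against near-identical siSRSF1-2 libraries. Its p-values rest on that small spread and do not measure a difference between separate samples. B2M was at 81.6, 83.6 and 86.1 FPKM (0.02, -0.16 to 0.20), and the heavy chain to B2M ratio was 2.30, 2.30 and 2.22, below all 3 blank values. TAP1 was at 7.87, 8.12 and 8.19 FPKM (-0.44, adjusted p = 0.174) and TAP2 at 4.53, 4.48 and 4.42 FPKM (-0.24, adjusted p = 0.189). TAP1 lay within the range of the blank libraries, just above their lowest value, and TAP2 lay below all of them.

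Set directly against each other, the siRNAs differed in their fitted values for the heavy chains without any gene passing the threshold. Of the 9 genes, 0 passed in limma, against 0.0855% of all genes tested, and voom called 0 of 9. At an unadjusted p under 0.05, 4 of 9 were called, against 42.1% of all genes. These were the 4 heavy chains, each higher in every siSRSF1-3 library than in any siSRSF1-2 library. The groups did not overlap for 5 of 9 genes, the heavy chains and TAP1, against 54.6% of all genes. HLA-B had a log2 fold change of 1.10 (0.05 to 2.14, adjusted p = 0.110), HLA-F of 0.72 (0.06 to 1.38, adjusted p = 0.104), HLA-C of 0.61 (0.03 to 1.18, adjusted p = 0.109) and HLA-E of 0.51 (0.01 to 1.01, adjusted p = 0.116). TAP1 was lower with siSRSF1-3 (-1.28, -2.88 to 0.31, adjusted p = 0.175). The intervals for B2M (-0.25 to 0.51), TAPBP (-0.41 to 0.66) and NLRC5 (-0.54 to 0.19) spanned 0. Without siSRSF1-3 replicate 3, HLA-B (1.55, adjusted p = 0.0053) and HLA-F (1.02, adjusted p = 0.00185) passed the threshold, among 5358 of all 17538 genes that did. Under the same FPKM sum in every library HLA-E turned to -0.07, and HLA-B, HLA-C and HLA-F shrank to 0.52, 0.030 and 0.15.

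The overexpression of LINC01134 was compared with the same blank libraries. None of the 9 genes passed the threshold in limma, against 0.85% of all genes tested, and voom called 0 of 9. At an unadjusted p under 0.05, 4 of 9 were called (HLA-C, HLA-E, HLA-F and NLRC5), all lower, against 26.3% of all genes in either direction. The fitted values were lower for 8 of 9 genes, with a median log2 fold change of -0.45 against 0.05 over all genes tested. The groups did not overlap for 3 of 9 genes, HLA-E, HLA-F and NLRC5, against 30.6% of all genes.

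HLA-F had the largest fitted difference of the 9 genes in the OE-LINC01134 libraries, at 1.24, 1.48 and 1.27 FPKM against 1.92, 4.60 and 4.35 FPKM in blank cells. All 3 libraries lay below the lowest blank library, with a log2 fold change of -1.29 (-2.09 to -0.49, adjusted p = 0.0885). Blank replicate 1 was the closest to them, and without it HLA-F passed the threshold (-1.68, adjusted p = 0.00765), while HLA-E (-0.80, adjusted p = 0.00822) and TAP1 (-0.74, adjusted p = 0.0146) had an adjusted p under 0.05 with a fold change under the minimum. Under that omission 963 of all 17538 genes passed the threshold, and the blank libraries left, replicates 2 and 3, were near-identical. HLA-E was at 38.6, 41.0 and 37.8 FPKM, below the lowest blank value of 48.0 FPKM (-0.63, -1.01 to -0.26, adjusted p = 0.0824). HLA-C was at 63.4, 84.9 and 62.1 FPKM (-0.45, adjusted p = 0.149) and HLA-B at 44.4, 58.8 and 45.2 FPKM (-0.37, adjusted p = 0.283). Replicate 2 of both genes fell within the range of the blank libraries.

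B2M lay within or just above the blank range, at 80.0, 89.3 and 80.0 FPKM against 74.8 to 86.6 FPKM in blank cells, and the interval of its log2 fold change ran from -0.25 to 0.27 (adjusted p = 0.963). The heavy chain to B2M ratio was 1.84, 2.08 and 1.83, below the lowest blank value of 2.41. NLRC5 was at 0.476, 0.733 and 0.508 FPKM, below the lowest blank value of 0.952 FPKM (log2 fold change -0.80, -1.39 to -0.20, adjusted p = 0.117). TAP1 was at 8.34, 7.39 and 7.63 FPKM (-0.49, adjusted p = 0.212) and TAP2 at 3.91, 4.75 and 3.90 FPKM (-0.34, adjusted p = 0.233), and both overlapped the blank libraries. TAPBP was at 13.9, 17.4 and 14.2 FPKM (-0.08, -0.37 to 0.21, adjusted p = 0.705), also with overlap.

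**Figure D3:**
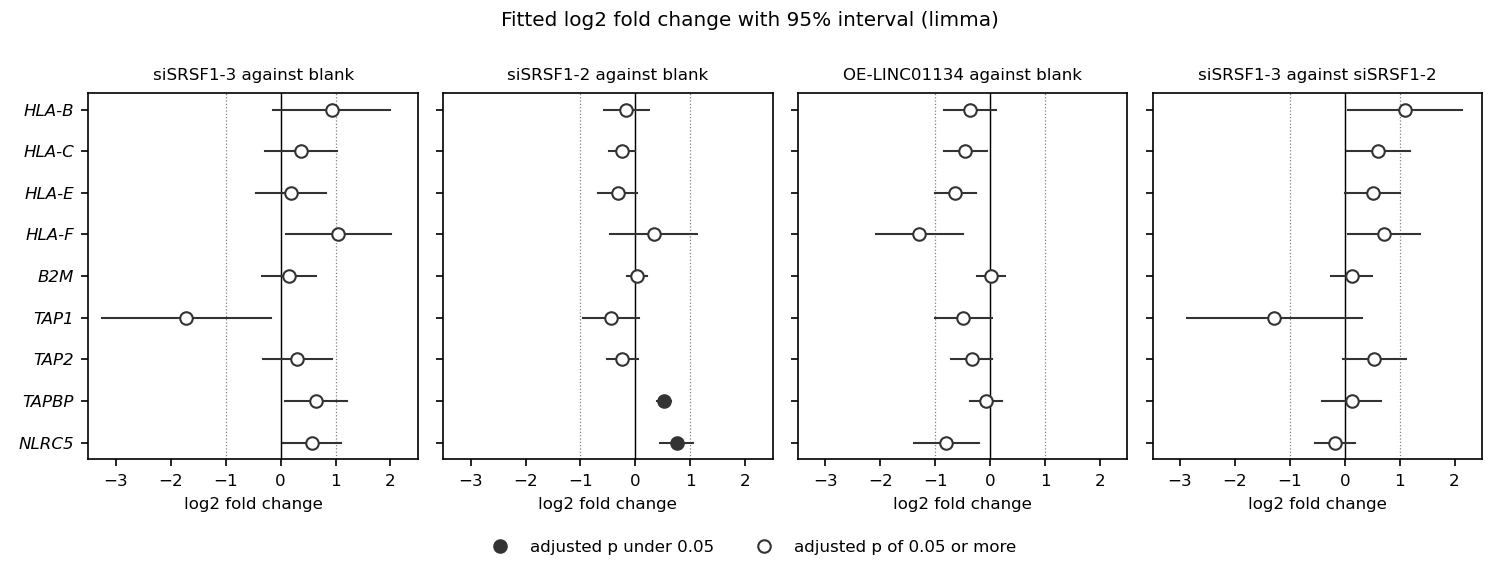
The fitted log2 fold change of each gene (horizontal axis) is plotted with its 95% interval from limma in the 4 comparisons, with dotted lines at -1 and 1 and filled points where the adjusted p was under 0.05. The filled points are TAPBP and NLRC5 in siSRSF1-2 against blank cells, at 0.52 and 0.75, and the widest intervals are those of TAP1 with siSRSF1-3, from -3.26 to -0.18 against blank cells and from -2.88 to 0.31 against siSRSF1-2.

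Side by side, with the blank libraries shared by the 3 comparisons, the genes did not all follow one order. NLRC5 had log2 fold changes of 0.57 with siSRSF1-3, 0.75 with siSRSF1-2 and -0.80 with OE-LINC01134, and TAPBP of 0.64, 0.52 and -0.08. HLA-B had 0.93, -0.17 and -0.37, and HLA-F had 1.05, 0.33 and -1.29. TAP1 was below the blank mean in all 3, at -1.72, -0.44 and -0.49, and B2M stayed between 0.01 and 0.15. Blank replicate 1 was the lowest blank library for the 4 heavy chains, B2M and TAP1 and the highest for TAP2 and TAPBP.

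The supply of peptides was examined through the immunoproteasome and its PA28 activator, a list of 5 genes of which all were tested. None passed the threshold in any comparison. The median log2 fold change of the list was 0.46 with siSRSF1-3, -0.27 with siSRSF1-2 and -0.12 with OE-LINC01134. PSME2, a PA28 subunit, was at 27.8, 26.1 and 25.9 FPKM in blank cells and at 62.7, 45.9 and 24.1 FPKM with siSRSF1-3 (0.63, adjusted p = 0.256), again with replicate 3 beside the blank libraries. With siSRSF1-2 it was at 22.8, 20.9 and 22.5 FPKM (-0.27, adjusted p = 0.0279). PSMB9 was fitted lower in all 3 comparisons with blank cells, at -0.40, -0.82 and -0.90, with none past the threshold.

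Trimming enzymes and chaperones of class I loading gave a list of 7 genes, all tested. Of these 1 passed the threshold, with siSRSF1-2, where 4.95% of all genes tested did. CALR, which encodes calreticulin, a chaperone of the loading complex, fell with siSRSF1-2 from 334, 256 and 266 FPKM in blank cells to 118, 122 and 124 FPKM (log2 fold change -1.22, adjusted p = 0.0018). With siSRSF1-3 CALR was at 176, 183 and 146 FPKM (-0.76, adjusted p = 0.116). The CALR call was kept at each of the 6 omissions of 1 library. The siSRSF1-2 libraries were near-identical, as were blank replicates 2 and 3, so these omissions cannot show whether the call holds over separate samples. With siSRSF1-3 all 7 genes were fitted lower, with a median of -0.73 against -0.01 over all genes tested. This median, like those of the other lists with siSRSF1-3, was taken under the deposited scaling without removal of the trend on gene length. The part of the tilt toward short genes in replicates 1 and 2 was not tested.

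The transcription factors that share class I promoters with NLRC5 gave 9 genes, of which 8 were tested and none passed the threshold. RFX5, the DNA-binding subunit of the RFX complex, was at 13.0, 14.9 and 15.2 FPKM in blank cells and at 7.51, 8.83 and 10.9 FPKM with siSRSF1-3, where the groups did not overlap (-0.67, adjusted p = 0.101). Its log2 fold change was -0.07 with siSRSF1-2 and -0.15 with OE-LINC01134.

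Interferon induces class I genes, so its receptors, kinases and transcription factors were listed, with 11 of 12 tested and none past the threshold. IRF2, a repressor of interferon target genes that also takes part in class I expression, was at 4.61, 4.36 and 3.96 FPKM in blank cells and at 1.54, 2.27 and 3.07 FPKM with siSRSF1-3, without overlap (-0.93, adjusted p = 0.1002).

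Of 22 interferon-stimulated genes, 10 were tested, and the log2 fold change had a median of -0.59 with siSRSF1-3, -0.63 with siSRSF1-2 and -1.05 with OE-LINC01134. The threshold was passed by 1 of 10 with siSRSF1-3 and 2 of 10 with siSRSF1-2, against 1.26% and 4.95% of all genes tested. IFIT3, which encodes an antiviral tetratricopeptide protein, fell with siSRSF1-3 from 2.33, 2.29 and 2.32 FPKM to 0.618, 0.626 and 0.765 FPKM (-1.65, adjusted p = 0.0430). With siSRSF1-2 ISG15, a ubiquitin-like modifier, fell from 20.3, 22.2 and 19.5 FPKM to 9.73, 10.8 and 9.80 FPKM (-1.02, adjusted p = 0.0013). OAS1, a sensor of double-stranded RNA, fell with siSRSF1-2 from 1.42, 0.882 and 0.983 FPKM to 0.408, 0.479 and 0.382 FPKM (-1.17, adjusted p = 0.0159). Over the 6 omissions of 1 library IFIT3 stayed past the threshold in 1, without siSRSF1-3 replicate 3, ISG15 in 4, all but those of blank replicate 2 and siSRSF1-2 replicate 1, and OAS1 in 2, those of blank replicates 2 and 3, with log2 fold changes of -1.74 to -1.61, -1.07 to -0.97 and -1.30 to -0.98. For ISG15 and OAS1, as for CALR, the siSRSF1-2 libraries and blank replicates 2 and 3 were near-identical. The omissions therefore cannot show whether these calls hold over separate samples. In the siSRSF1-3 libraries ISG15 was at 56.3, 31.3 and 10.2 FPKM (0.34, adjusted p = 0.696), a spread in which replicate 1 was the highest of the 12 libraries, as it was for HLA-B. With OE-LINC01134 none of the 10 genes passed the threshold, 8 were fitted lower, and 5 of these had an unadjusted p under 0.05 with a log2 fold change under -1, against 5% of all genes. These 5 were ISG15, IFIT3, IFI6, OAS1 and BST2. Each was higher in OE-LINC01134 replicate 2 than in replicates 1 and 3, which were near-identical. In replicate 2 IFI6 (37.8 FPKM) and BST2 (1.24 FPKM) lay within the range of the blank libraries.

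Of 8 other class I and class I-like genes 5 were tested, and 1 passed the threshold, with siSRSF1-2, where 4.95% of all genes tested did. CD1D, which presents lipids, fell with siSRSF1-2 from 1.88, 0.937 and 1.09 FPKM to 0.634, 0.331 and 0.463 FPKM (-1.26, adjusted p = 0.0362), and of the 6 omissions it stayed past the threshold only without blank replicate 2. The limit set by near-identical libraries applies to this call too. The class II genes were low in these cells, with 3 of 9 reaching 0.5 FPKM in at least 1 blank library, and of 9 only 2 were tested. Of these 1 passed the threshold, with OE-LINC01134, where 0.85% of all genes tested did. The summed class II level was 2.43 to 3.31 FPKM in blank cells, 0.521 to 0.582 with OE-LINC01134, 1.68 to 1.80 with siSRSF1-2 and 2.20 to 4.01 with siSRSF1-3. HLA-DPB1, the beta chain of a class II molecule, was at 0.854, 1.11 and 1.33 FPKM in blank cells and fell to 0.0124, 0.171 and 0.0627 FPKM with OE-LINC01134 (-2.79, adjusted p = 0.0486). Of the 6 omissions this call was kept in 2, those of blank replicate 1 and OE-LINC01134 replicate 2. Each of these left a group of near-identical libraries only. Markers of blood and antigen presenting cells were near 0, with none of 9 reaching 0.5 FPKM in any library, a summed level of 0.146 to 0.461 FPKM and CD3E at 0 in all 12 libraries. The epithelial markers summed to 1.60 to 2.27 FPKM in blank cells, 1.62 to 1.84 with siSRSF1-2, 2.13 to 2.31 with OE-LINC01134 and 2.92 to 3.00 with siSRSF1-3, and their part in the results was not tested.

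**Figure D4:**
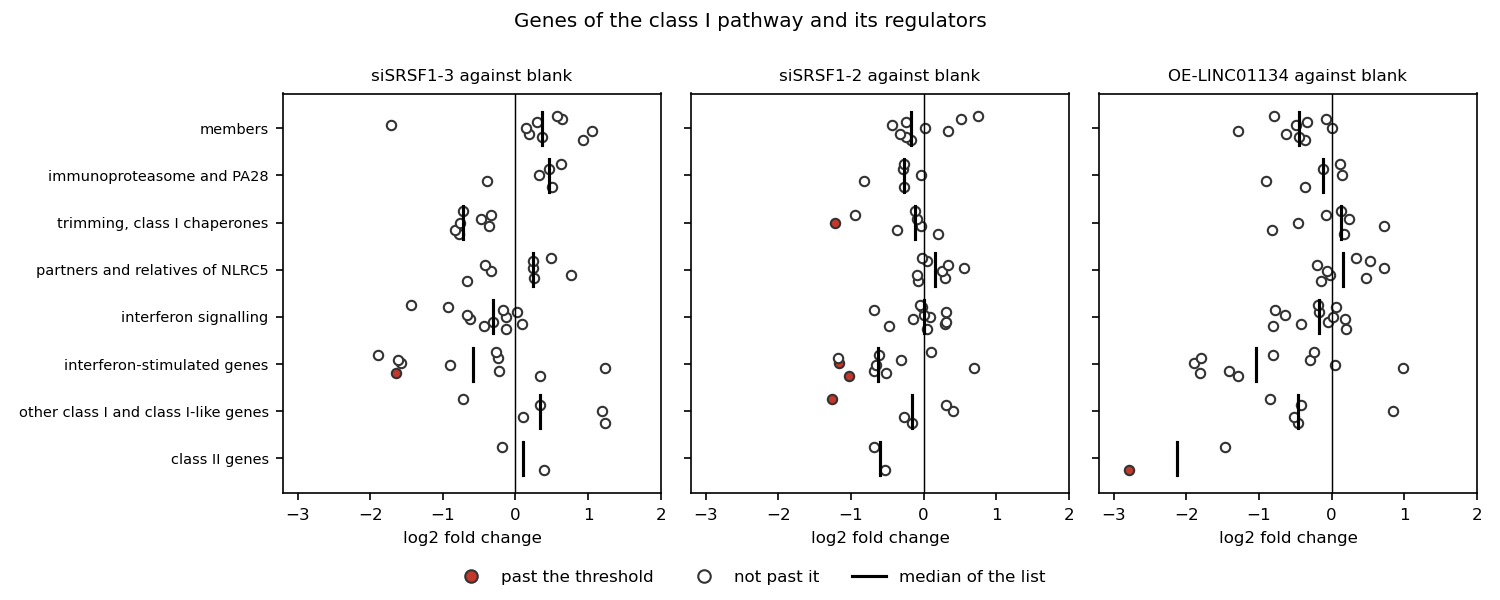
Each point is the log2 fold change (horizontal axis) of 1 tested gene, grouped by list from the 9 class I and peptide loading genes at the top to the class II genes at the bottom, in the 3 comparisons with blank cells, with red points past the threshold and black bars at the median of each list. The red points are IFIT3 with siSRSF1-3, CALR, ISG15, OAS1 and CD1D with siSRSF1-2, and HLA-DPB1 with OE-LINC01134.

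The genes whose pattern was most like that of the heavy chains were sought over the 12 libraries. The measure was the root mean square difference from the mean centred log2 level of the 4 heavy chain genes, whose own root mean square was 0.545. The 5 closest genes, described here without a test, were those of extracellular matrix protein 1 (0.112), neural proliferation, differentiation and control 1 (0.121), regulator of G protein signaling 10 (0.122), mitochondrially encoded 12S RNA (0.123) and microsomal glutathione S-transferase 3 (0.124). They share the libraries' scaling with the heavy chains, and in each of them siSRSF1-3 replicate 1 was the highest library.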

How the data were processed

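RNA of 12 U2OS libraries was sequenced. The authors deposited FPKM per gene and library with gene lengths in bases, another unit, and coordinates. The aligner, counter and human build are not given in the sources used here, and the labels list only mouse builds. The labels name a SMARTer kit and the supplementary methods a NEBNext kit with poly-T selection, and strand use is not stated. Transient transfection is described in the paper for HOS cells only. FPKM times gene length gave whole reads for 100% of values, within 0.01 of a read.

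For each comparison its 3 + 3 libraries were fitted on the log2(FPKM + 0.1) scale by limma 3.58.1 (R 4.3.3, eBayes with trend), over the 17538 genes whose mean reached 0.5 FPKM, with Benjamini-Hochberg adjustment over all of them. This scale understates the fold changes of low genes. The script was tested on data simulated from the means and spreads of these libraries, with 200 genes changed by more than the minimum fold change. It called 70 of the 200 for siSRSF1-3, 140 for siSRSF1-2 and 117 for OE-LINC01134 against blank, and 98 for siSRSF1-3 against siSRSF1-2. A gene that did not pass the threshold is therefore not shown to be unchanged. Alternatives covered pseudocounts, filters, scalings, the variance trend, one fit over 4 groups, voom on recovered reads, thresholds, a replicate block and each library left out. Averaging of near-identical libraries (chi-square under 5 per degree of freedom) and removal of a loess trend (span 0.5) on gene length were chosen after seeing the data.

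Named were the 9 genes, SRSF1, LINC01134, list genes past the threshold (otherwise the list gene of smallest adjusted p in siSRSF1-3 against blank) and the 5 genes most like the heavy chains. PSMB9 was named for its overlap with TAP1, and marker genes after their values were seen. The genes and lists were chosen with earlier results of these data known. No human sequence was used here.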

Additional observations from a re-analysis of the deposited data

How the results depend on the processing

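The count of the 9 genes past the threshold was 0 in all 4 comparisons, and also with voom, other pseudocounts, other filters, both scalings, no trend, the replicate block (0 in each comparison) and the length trend removed. Averaging near-identical libraries also gave 0, but it left siSRSF1-2 as 1 sample and called 0, 0, 1 and 0 of all genes, so it bears on no call. The count was 2 for siSRSF1-3 against blank (HLA-F and TAP1), 1 for OE-LINC01134 against blank (HLA-F) and 1 for siSRSF1-3 against siSRSF1-2 (HLA-B) both with the unadjusted p and in one fit over all 4 groups, and 2 for siSRSF1-2 against blank (TAPBP and NLRC5) with no minimum fold change. Of all 17538 genes, the unadjusted p called 2596, 1307 and 2883 in the first 3 of these comparisons, and the one fit 2422, 689 and 2731. With no minimum fold change 4702 were called for siSRSF1-2 against blank. With 1 library left out the count of the 9 genes ranged from 0 to 3, 0 to 1 and 0 to 2 in those first 3 comparisons, with the highest counts without siSRSF1-3 replicate 3 or blank replicate 1, and was 0 throughout for siSRSF1-2 against blank. The cause was not tested.

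Signs turned as follows. With own read totals, HLA-E (-0.070) and B2M (-0.11) turned in siSRSF1-3 against blank, and B2M (-0.18) and TAPBP (-0.18) against siSRSF1-2. With the same FPKM sum, HLA-C (-0.074), HLA-E (-0.26), B2M (-0.29) and TAP2 (-0.14) turned against blank, HLA-E (-0.070), B2M (-0.45), TAP2 (-0.032) and TAPBP (-0.45) against siSRSF1-2, and TAPBP (0.0105) in OE-LINC01134. With the length trend removed, B2M turned in siSRSF1-2 (-0.0073) and OE-LINC01134 (-0.0037), and NLRC5 in siSRSF1-3 against siSRSF1-2 (0.25). With 1 library left out, HLA-F in siSRSF1-2 ranged from -0.059 to 0.55, B2M from -0.047 to 0.058 in siSRSF1-2 and from -0.060 to 0.046 in OE-LINC01134, and TAPBP in siSRSF1-3 against siSRSF1-2 from -0.087 to 0.33. All other directions of the 9 genes were kept.

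Over all genes the count past the threshold moved from 221 to between 0 and 4184 for siSRSF1-3 against blank (4184 without siSRSF1-3 replicate 3, 587 with voom), from 868 to between 314 and 4702 for siSRSF1-2 (0 with the averaging), from 149 to between 1 and 1540 for OE-LINC01134, and from 15 to between 0 and 5358 for siSRSF1-3 against siSRSF1-2. Scaling to own totals or to the same FPKM sum moved the median of all genes to -0.26 or -0.43 for siSRSF1-3 against blank and to -0.31 or -0.57 against siSRSF1-2. The same sum moved it to 0.15 for siSRSF1-2 and 0.14 for OE-LINC01134, where the higher and lower calls were 604 and 340, and 83 and 103, against 389 and 479, and 45 and 104. For siSRSF1-3 against blank the split of 58 higher and 163 lower calls became 11 and 58 with own totals and 1 and 0 with the same sum, and against siSRSF1-2 that of 6 and 9 became 1 and 7. Same-numbered libraries deviated together with correlations of -0.0815 to 0.042, so the numbers were not taken as pairs, and the replicate block left 0, 681, 4 and 0 calls in the 4 comparisons in the order above. No library pair differed by counting noise alone, so that planned averaging had nothing to average. The 97 reads of TAP1 and the 156 of HLA-F in their lowest libraries limit the precision there.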
